A study of Mus musculus with 28 samples.

Results

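The promoters of vomeronasal receptor genes were taken as the rows of the promoter table whose gene name starts with Vmn1r or Vmn2r. There were 325 of them among 22138 promoters, 200 of Vmn1r genes and 125 of Vmn2r genes. Each was measured over a window that reaches 1 kb to either side of the annotated transcription start. The study profiled mouse primordial germ cells (PGCs), from which the gametes develop, and gonadal somatic cells at E13.5, sorted by flow cytometry as SSEA1+ and SSEA1- cells. It compared germ cells with and without Setdb1, the gene of an enzyme that trimethylates lysine 9 of histone H3. The ChIP-seq controls (Het) were Setdb1 flox/- and the ChIP-seq knockouts (KO) were Setdb1 delta/-, so both carried a null allele, with 1 library of each mark for each sex and genotype. A further H3K9me3 library came from wild-type C57BL/6 male soma. The RNA-seq controls of each sex were 2 Setdb1 delta/+ libraries (Het1), 2 Setdb1 flox/- libraries (Het2) and 1 Setdb1 flox/+ library (WT). The RNA-seq knockouts were 2 Setdb1 delta/- libraries of each sex, and C57BL/6 male germ cells and male soma gave 1 library each. What drove the deletion of the floxed allele, and whether libraries came from separate embryos or pools, is not given in the labels.

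Vomeronasal receptors are G protein-coupled receptors that detect pheromones and other social cues in the sensory neurons of the vomeronasal organ. V1R receptors (Vmn1r genes) sit in apical neurons that use the G protein subunit encoded by Gnai2, and V2R receptors (Vmn2r genes), with their long extracellular domain, sit in basal neurons that use the subunit encoded by Gnao1. Both signal through the channel encoded by Trpc2, and a neuron expresses few receptor genes of its family while the rest stay silent. The genes lie in tandem clusters of recent duplicates. H3K9me3 is a mark of heterochromatin, and H3K27me3 is the mark of Polycomb repression.

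The promoter sequences below are those of the receptors with the highest H3K9me3 in each family, each with the member nearest to it in sequence, and those of the receptors that ranked first for lower and for higher H3K9me3 in KO. They are from RefSeq (build GRCm38.p6), which held a promoter of 300 bases for 286 of the 325 members, 250 bases before and 50 after the annotated start. The deposited marks were measured on build mm9. Capitals mark CG dinucleotides, the sites of DNA methylation.
Vmn1r124 (GRCm38.p6, chr7:21260568-21260867, minus strand): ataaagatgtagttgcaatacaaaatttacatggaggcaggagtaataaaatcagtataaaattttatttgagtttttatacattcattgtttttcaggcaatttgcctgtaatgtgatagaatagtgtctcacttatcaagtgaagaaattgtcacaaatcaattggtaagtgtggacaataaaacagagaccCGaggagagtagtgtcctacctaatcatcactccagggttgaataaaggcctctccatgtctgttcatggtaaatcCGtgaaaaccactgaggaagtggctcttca
Vmn1r157 (GRCm38.p6, chr7:22761447-22761746, plus strand): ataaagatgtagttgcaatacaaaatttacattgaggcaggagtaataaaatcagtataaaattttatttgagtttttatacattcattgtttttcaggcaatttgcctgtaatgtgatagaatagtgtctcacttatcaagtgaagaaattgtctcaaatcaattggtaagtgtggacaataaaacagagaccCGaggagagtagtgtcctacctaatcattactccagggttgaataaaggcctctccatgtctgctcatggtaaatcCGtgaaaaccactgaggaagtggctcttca
Vmn2r54 (GRCm38.p6, chr7:12636085-12636384, minus strand): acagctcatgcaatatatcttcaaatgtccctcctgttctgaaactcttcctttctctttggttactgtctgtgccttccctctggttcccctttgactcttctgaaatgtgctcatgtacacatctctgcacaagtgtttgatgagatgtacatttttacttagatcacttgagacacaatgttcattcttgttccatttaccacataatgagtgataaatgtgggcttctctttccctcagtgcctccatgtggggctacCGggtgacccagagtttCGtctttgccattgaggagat
Vmn2r55 (GRCm38.p6, chr7:12684942-12685241, minus strand): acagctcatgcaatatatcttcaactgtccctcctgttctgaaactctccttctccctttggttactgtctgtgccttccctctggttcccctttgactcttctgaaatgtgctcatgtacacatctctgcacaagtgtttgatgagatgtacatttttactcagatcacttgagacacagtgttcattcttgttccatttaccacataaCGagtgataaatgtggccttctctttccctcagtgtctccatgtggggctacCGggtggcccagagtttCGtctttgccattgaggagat
Vmn1r215 (GRCm38.p6, chr13:23075542-23075841, plus strand): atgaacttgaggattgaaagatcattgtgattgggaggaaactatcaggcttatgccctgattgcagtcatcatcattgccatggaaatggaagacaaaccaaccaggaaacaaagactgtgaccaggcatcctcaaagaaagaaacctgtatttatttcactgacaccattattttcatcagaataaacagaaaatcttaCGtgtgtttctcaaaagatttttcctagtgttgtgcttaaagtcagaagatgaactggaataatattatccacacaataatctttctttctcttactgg
Vmn1r50 (GRCm38.p6, chr6:90107025-90107324, plus strand): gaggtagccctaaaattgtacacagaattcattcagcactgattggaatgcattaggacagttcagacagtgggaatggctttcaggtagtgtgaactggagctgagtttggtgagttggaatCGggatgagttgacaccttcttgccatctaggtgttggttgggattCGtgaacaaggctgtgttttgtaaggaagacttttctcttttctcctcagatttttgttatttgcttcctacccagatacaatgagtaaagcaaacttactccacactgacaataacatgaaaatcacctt
The Vmn1r124 and Vmn1r157 promoters were 98.7% identical and the Vmn2r54 and Vmn2r55 promoters 96.3% identical. Vmn1r124 had the highest mean H3K9me3 of all members, while Vmn1r157 was listed at 0 in all 9 ChIP libraries. Vmn2r54 and Vmn2r55 had like levels, with means over the 4 germ cell libraries of 0.87 and 0.825 RPKM (reads per kilobase, scaled to the reads of the library).

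The receptor promoters were poor in CG. Over the 300 bases the median member held 1 CG, against 14 over the 14718 promoters of the table with a sequence, and 25.9% of members held none, against 4.89% of all. The median GC content was 36.7% in members and 57% in all. Olfactory receptor (Olfr) promoters were alike, with a median of 1 CG, none in 33.6% of them and a median GC content of 35%. A low CG content was thus not particular to the members. The letters ATG stood at the RefSeq start in 86.4% of members, in 73.2% of Olfr promoters and in 8.64% of all. Whether the deposited windows are centred on the same starts was not tested. Motifs were searched on both strands. The letters TATAAA were found in 36% of members, in 40.8% of olfactory receptor promoters and in 12.9% of all promoters. The letters CCCNNGGG, the core bound by the olfactory neuron factors of the Ebf family, were in 19.8% of Vmn2r promoters, 0.571% of Vmn1r promoters, 3.16% of olfactory receptor promoters and 15.9% of all. The homeodomain letters TAATTA were in 12.2% of members, 18.8% of olfactory receptor promoters and 4.68% of all. Each motif was counted by itself, also where it shared bases with another.

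Many members share promoter sequence. The median identity of a member's promoter to its nearest member was 88.4%. All 50-base words of the promoter occurred in another gene's promoter for 41 members, some or most of them for others, and none for 129 members. Of the 22 members listed at 0 in all 9 ChIP libraries, 15 had a promoter sequence, and 10 of those had every 50-base word elsewhere. Median H3K9me3 in male Het was 0.077 RPKM in the 41 members with every word shared and 0.128 RPKM in the 129 with none shared, with 0.202 RPKM where some but under 50% of words were shared. Across the 286 members the share of words elsewhere had a Spearman's rho of -0.056 with H3K9me3 in male Het, -0.406 with that in soma and -0.277 with H3K27me3 in male Het. Of the 129 with no word shared, 15.5% had a mean H3K9me3 of 0.5 RPKM or more in germ cells. How reads that match several places were assigned is not given in the sources used here, and its part in these values was not tested.

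At most receptor promoters H3K9me3 in germ cells was low and close to the level of a typical promoter, with a long upper tail made mainly of Vmn1r genes. The median over the 325 members was 0.137 RPKM in male Het, 0.153 in male KO, 0.184 in female Het and 0.198 in female KO. The medians over all promoters were 0.127, 0.136, 0.179 and 0.149 RPKM in the same libraries. The members' medians thus stood beside those of all promoters in Het and above that of all promoters in female KO. From the steps between low values, 1 read was worth 0.00871 to 0.0145 RPKM, which gives a depth of 34400000 to 57400000 reads per library and a median of 5.4 to 11.3 read pairs per member. A single promoter at the median is therefore measured with large counting error, and the comparisons turn on the upper tail.

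**Figure D1:**
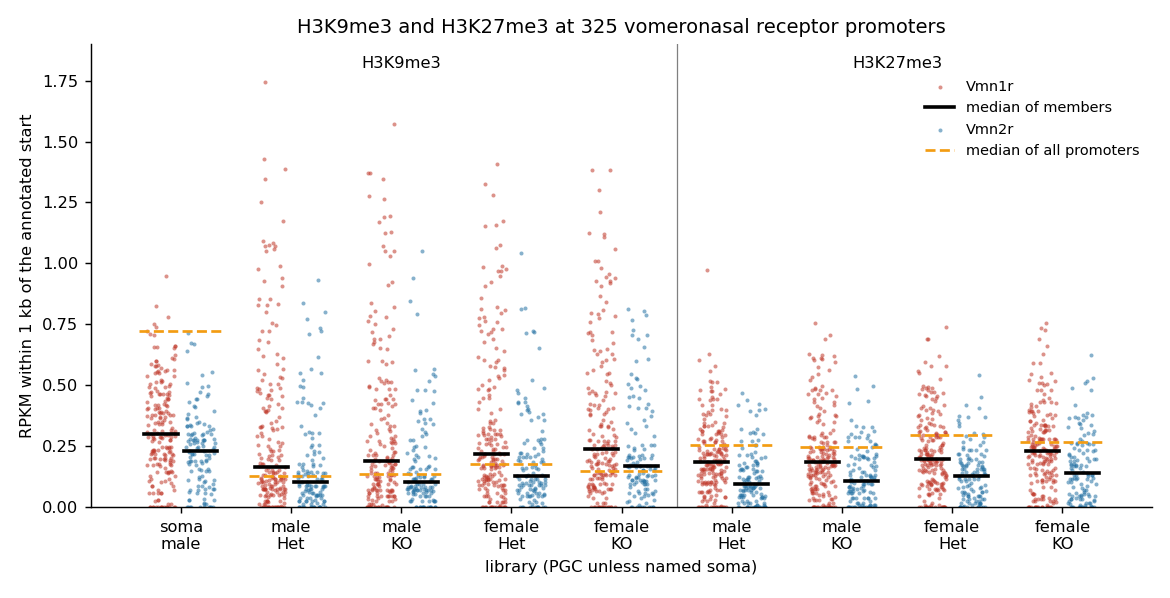
RPKM of every member (red, Vmn1r; blue, Vmn2r) in each of the 9 ChIP libraries, with the median of each family as a black bar and the median of all promoters as a dashed line. The upper tail of H3K9me3 in germ cells is mostly Vmn1r and reaches 1.743 RPKM in male Het, while in soma most members lie below the median of all promoters.

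A mean H3K9me3 of 0.5 RPKM or more over the 4 germ cell libraries was reached by 57 members, 17.5% of the 325, against 1783 promoters or 8.05% of all and 120 or 10.8% of olfactory receptor promoters. The 57 were 46 Vmn1r promoters (23% of that family) and 11 Vmn2r promoters (8.8%). Median levels of Vmn1r were above those of Vmn2r in each germ cell library, 0.164 against 0.102 RPKM in male Het and 0.218 against 0.129 RPKM in female Het. The order of the members was alike from library to library. Spearman's rho across the 325 members was 0.842 between male Het and male KO, 0.885 between male Het and female Het and 0.889 between female Het and female KO, where the points share promoter length, base composition and reads that match several members.

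Vmn1r124, the V1R promoter printed first, had 1.428 RPKM in male Het, 1.57 in male KO, 1.062 in female Het and 1.383 in female KO. Vmn1r60 had 1.348, 1.369, 0.989 and 1.212 RPKM in the same order. Vmn1r45 had 1.091, 1.263, 1.154 and 1.303 RPKM. As deposited, both KO libraries were above the Het library of their sex at these V1R promoters, with counting intervals of the ratio that included 1. After centring the male difference turned to -0.03 at Vmn1r124 and -0.14 at Vmn1r60 on the log2 scale. Vmn1r215 had the highest value of any member, 1.743 RPKM in male Het, with 1.071 in male KO, 1.282 in female Het and 0.841 in female KO, so there both KO libraries were below. Among V2R promoters, Vmn2r54 had 0.839, 0.794, 1.042 and 0.806 RPKM, and Vmn2r17 had 0.931, 0.94, 0.724 and 0.705 RPKM. Vmn2r55 had 0.618, 1.052, 0.816 and 0.815 RPKM, and Vmn2r16, a neighbour of Vmn2r17, had 0.801, 0.847, 0.812 and 0.789 RPKM. The counting interval of the KO to Het ratio included 1 in both sexes at Vmn2r54, Vmn2r17 and Vmn2r16. At Vmn2r55 the ratio was 1.74 (95% exact interval 1.04 to 2.98, counting error only) in males and 1.01 (0.629 to 1.62) in females.

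H3K9me3 differed between groups of neighbouring genes. By the gene order of RefSeq, 320 members fell into 27 runs in which neighbours lie within 1000000 bases, and 14 runs with 5 or more members held 295. Differences between runs made up 28.5% of the variance of the members' mean log2 H3K9me3, a share that the number of runs raises by itself, and differences between the Vmn1r and Vmn2r families 4.26%. The run from Vmn1r55 to Vmn1r65, 10 V1R genes and Vmn2r28, was highest, with a median of 0.763 RPKM over 11 members and 7 of them at 0.5 RPKM or more. The run from Vmn1r40 to Vmn1r54 followed with a median of 0.536 RPKM and 8 of 15 at that level, and the V2R run from Vmn2r8 to Vmn2r17 with 0.406 RPKM and 4 of 10. A pair of large V1R runs had different levels, the 61 members from Vmn1r91 to Vmn1r183 with a median of 0.291 RPKM and 20 at 0.5 RPKM or more, and the 28 members from Vmn1r4 to Vmn1r31 with 0.096 RPKM and 0 at that level. The family C receptors Vmn2r1 to Vmn2r7, which are expressed broadly in basal neurons beside the other V2R receptors, were low, with a median of 0.123 RPKM and means from 0.036 to 0.219 RPKM. Neighbours share sequence as well as position, and the share of either in this pattern was not tested.

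**Figure D2:**
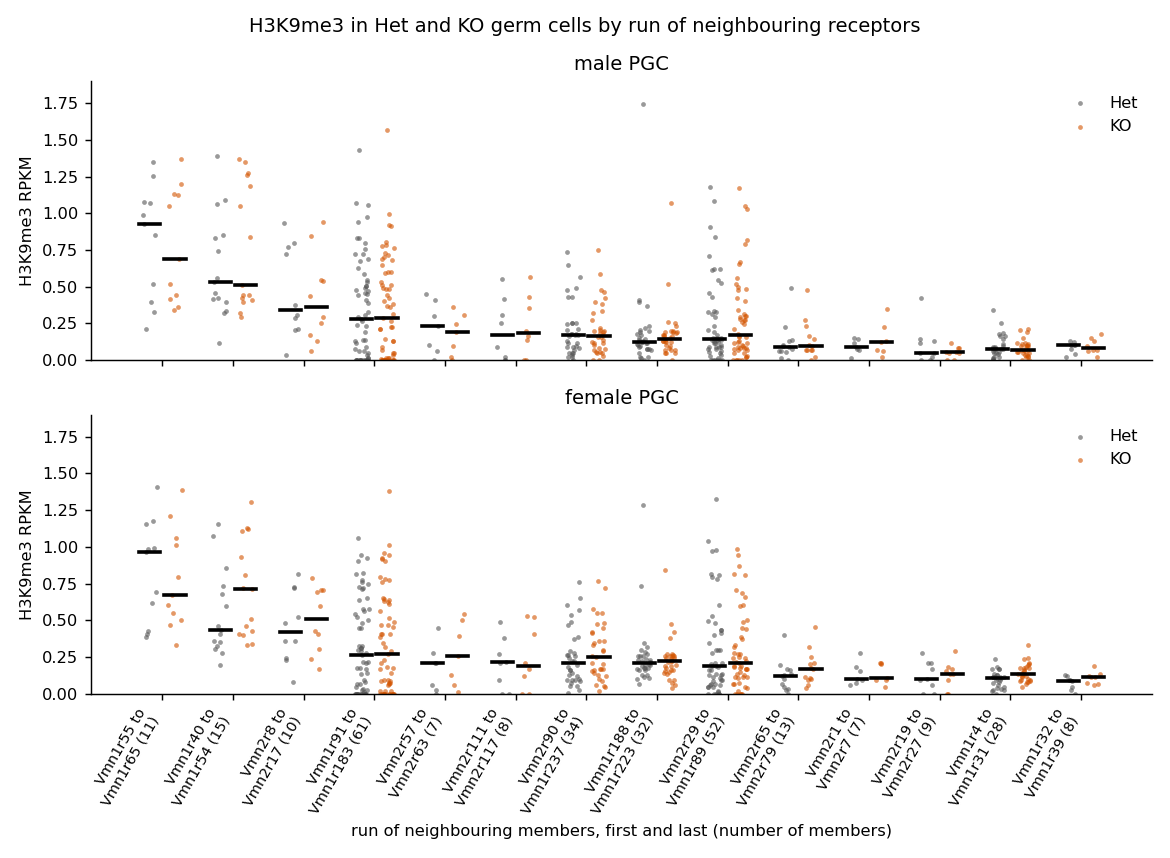
H3K9me3 RPKM of each member in Het (grey) and KO (orange), males above and females below, in the 14 runs of 5 or more neighbouring members ordered by their level, with run medians as black bars. The runs from Vmn1r55 to Vmn1r65 and from Vmn1r40 to Vmn1r54 have the highest medians of the mean level (0.763 and 0.536 RPKM).

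No common fall of H3K9me3 was seen at receptor promoters in KO. A promoter was called where the difference was at least 2-fold on log2(RPKM + 0.1) in the same direction in both sexes, with 1 RPKM or more in the higher library of each pair. There was 1 library per sex and genotype, so there is no replicate error and no p-value belongs to this rule. Of 12 members at that level, 0 were called lower and 0 higher, beside 7.14% called lower and 0.42% higher of the 238 promoters at that level. At 0.5 RPKM, 0 of 56 members were called either way, beside 2.86% lower and 0.22% higher of 1821 promoters. With 12 members, a share of 7.14% would come to about 1 promoter, so the count of 0 at 1 RPKM says little.

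Over all members the median KO minus Het difference was 0.00 in males and 0.06 in females, where all promoters had 0.06 and -0.16. After centring each library on promoters with 1 RPKM or more in any library of the mark, the members' medians became -0.16 and 0.34 and those of all promoters -0.10 and 0.12, so the sign in males depends on the scaling. Without regard to size, 57 members were lower in both sexes and 98 higher in both, 17.5% and 30.2% of the members, against 30.2% and 20.6% of all promoters. After centring, 37 members were lower and 97 higher in both, against 24.7% and 27.8% of all promoters, and after quantile normalization 49 and 103, against 26.4% and 27% of all. More members were thus higher than lower in KO under each scaling, while for all promoters the balance turned with the scaling. As deposited, 182 of 1111 olfactory receptor promoters were lower in both sexes and 451 higher, so this balance was not particular to the members.

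Named promoters differed in both directions. Vmn1r215 was the 1 member of the 12 that was lower in both sexes. Its KO to Het ratio of read pairs was 0.613 in males (95% exact interval 0.411 to 0.907) and 0.658 in females (0.434 to 0.992), where intervals cover counting error only. Vmn1r56, in the run with the highest level, had 0.929 RPKM in male Het and 0.415 in male KO, 1.159 in female Het and 0.549 in female KO. Its ratios were 0.464 (0.248 to 0.838) and 0.475 (0.29 to 0.765), the lowest pair among members at 0.5 RPKM or more, a ranking chosen after its values were seen. The next in that ranking, Vmn1r169, Vmn1r167 and Vmn1r82, had ratios from 0.705 to 0.897 and intervals that included 1.

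In the other direction, Vmn1r50 had 0.746 RPKM in male Het and 1.189 in male KO, 0.733 in female Het and 1.119 in female KO. Its ratios were 1.6 (0.992 to 2.62) and 1.51 (0.966 to 2.4), both with 1 inside the interval. Vmn1r43, in the same run, had 0.562 RPKM in male Het and 1.346 in male KO, 0.597 in female Het and 0.93 in female KO, with ratios of 2.4 (1.45 to 4.13) and 1.54 (0.94 to 2.59). Both lie in the run from Vmn1r40 to Vmn1r54, where 11 of 15 members were higher in KO in both sexes and 1 lower, with median differences of 0.19 in males and 0.33 in females. After centring the medians were 0.04 and 0.61 and 8 members were higher in both. In the run from Vmn1r55 to Vmn1r65, 2 of 11 were lower and 2 higher in both sexes. The low run from Vmn2r80 to Vmn2r83 was lower in both sexes at 4 of 4 members under every scaling tried, from median levels of 0.264 RPKM in male Het and 0.278 in female Het. These runs were picked after their values were seen.

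Over both sexes, 2 members were lower beyond the counting interval in each sex (Vmn1r215 and Vmn1r56), beside 0.736% of all promoters, and 1 was higher (Vmn1r236), beside 0.0723%. Vmn1r236 lies far below the level filter, with 0 and 0.092 RPKM in Het and 0.139 and 0.359 RPKM in KO. With limma over the 4 germ cell libraries and sex as a term, 0 of 56 members at 0.5 RPKM or more passed an adjusted p of 0.05, beside 3.46% of promoters called lower and 0.11% higher. An unadjusted p under 0.05 was found for 2 members lower and 2 higher, beside 177 and 27 of the 1821 promoters. In the limma fits of ChIP libraries, for both marks, the sexes stand in for replicates. Their SE and p-values thus rest on how far the KO to Het difference varied between the sexes, and not on replicate error. In limma this spread is shared over promoters, so it is not that of a promoter alone. At Vmn1r56 the differences were -1.0 in males and -0.96 in females, close together beside its SE. Vmn1r56 had a log2 difference of -0.98 (SE 0.32, limma adjusted p = 0.0577) and Vmn1r43 one of 0.85 (limma adjusted p = 0.0844), neither past the threshold.

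**Figure D3:**
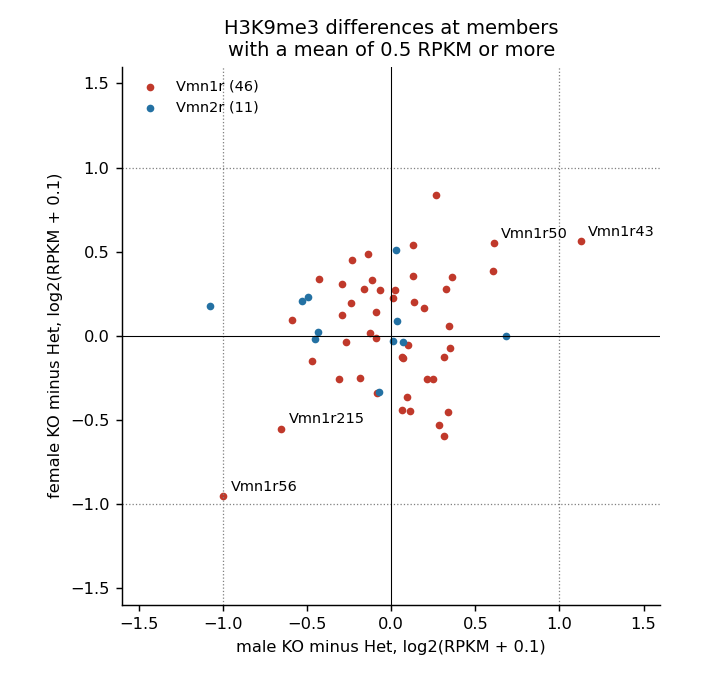
KO minus Het difference of H3K9me3 on the log2(RPKM + 0.1) scale in males (x) and females (y) for the 57 members with a mean of 0.5 RPKM or more, with dotted lines at 2-fold. The points lie around 0 in all 4 quadrants, with Vmn1r56 lowest and Vmn1r43 and Vmn1r50 among the highest. No member passes 2-fold in both sexes on this scale, where Vmn1r56 lies at -1.0 in males and -0.96 in females.

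H3K27me3 was low at receptor promoters in both genotypes. The members' medians were 0.152 RPKM in male Het, 0.159 in male KO, 0.172 in female Het and 0.202 in female KO, below the 0.249 to 0.296 RPKM of all promoters. No member reached 1 RPKM in any of the 4 libraries, and the share of all promoters that did was 4.84% to 11.9%. For that reason 0 members could be called in KO against Het, beside 0.0556% called lower and 0% higher of 1800 promoters, and at 0.5 RPKM 0 of 15 members were called, beside 0.113% and 0% of 6206. With limma over the 4 libraries 0 of those 15 passed, beside 0.483% called lower and 0.161% higher. An unadjusted p under 0.05 was found for 0 members lower and 1 higher, beside 694 and 106 of the 6206 promoters. Without regard to size, 59 members were lower in both sexes and 97 higher, beside 38.3% and 17.1% of all promoters. After centring the counts were 22 and 171, beside 23.7% and 32.2% of all promoters. Centring makes a promoter listed at 0 in all 4 libraries count as higher, and 22 members were at 0 in all 9 ChIP libraries. The centred count of higher members is thus raised by promoters without reads. After quantile normalization the counts were 33 and 138, beside 27.9% and 27.4% of all promoters. The balance of all promoters thus turned with the scaling, and that of the members did not. As deposited, 213 of 1111 olfactory receptor promoters were lower in both sexes and 380 higher, so here too that family was alike. The members' medians were 0.00 in males and 0.06 in females, where all promoters had -0.05 and -0.15, and 0.03 and 0.31 after centring, where all promoters had -0.02 and 0.11. The highest member was again Vmn1r215, with 0.973 RPKM in male Het, 0.596 in male KO, 0.622 in female Het and 0.521 in female KO. At this promoter both marks were lower in both KO libraries, with an H3K27me3 ratio of 0.608 (0.379 to 0.96) in males and 0.841 (0.494 to 1.42) in females.

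The balance between the marks differed from that of other promoters. H3K9me3 was above H3K27me3 on the deposited RPKM scale at 56.9% to 60.9% of members in the 4 pairs of libraries, against 15.7% to 20% of all promoters and 33.5% to 44.7% of olfactory receptor promoters. A value of H3K9me3 at least 2-fold above H3K27me3 was seen at 25 to 33 members, 7.69% of them in the pair of libraries with the fewest, and at 0.614% to 1.07% of all. The antibodies may differ in yield, so the ratio can be read only between sets of promoters. Members high in one mark were also high in the other, with Spearman's rho from 0.77 to 0.824 across the members and from 0.698 to 0.77 across all promoters. The points share window, composition and the reads that match several members.

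In soma the receptor promoters lay below the level of a typical promoter. The soma library stands apart from the germ cell libraries over the whole table, with a median of 0.721 RPKM at all promoters and a level that went up with the number of CG (Spearman's rho 0.293 across 14718 promoters), while in the germ cell H3K9me3 libraries it went down (-0.227 to -0.381). The members' median in soma was 0.27 RPKM, that of olfactory receptor promoters 0.362 RPKM and that of bitter taste receptor (Tas2r) promoters 0.347 RPKM, so a low level in soma was shared by other receptor families. Soma was above male Het germ cells at 184 members and below at 116, where it was above at 93.4% of all promoters and below at 5.25%. The median difference was 0.24 over members and 1.66 over all promoters on the log2 scale. After centring it was -1.6 and -0.18, so the sign depends on the scaling. After quantile normalization it was -0.96 and 0.00, and with a pseudocount of 1 it was 0.05 and 0.54, so the members stayed below all promoters with a smaller gap.

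Under the rule of size, 9 of 13 members were called lower in soma and 0 higher, beside 2.44% called lower and 79.4% higher of 4306 promoters. All 13 passed through the germ cell library, since no member reached 1 RPKM in soma, so none could have been called higher. Of all promoters 4113 reached 1 RPKM in soma and 298 in male Het, so most of the 4306 passed through soma. A call of lower needs that level in male Het, so 2.44% is not a like background for the 9 members. At 0.5 RPKM 18 were called lower and 16 higher, beside 1.08% and 81.7% of 16882 promoters. There too most promoters passed through soma, with 16575 at 0.5 RPKM in soma and 2007 in male Het. Vmn1r215 had 0.465 RPKM in soma against 1.743 in male Het, a ratio of 0.268 (0.145 to 0.467). Vmn1r46 had 0.377 against 1.388 RPKM and Vmn1r167 0.296 against 1.053 RPKM. In the other direction Vmn1r86 had 0.827 RPKM in soma and 0.064 in male Het, a ratio with an interval from 3.28 to 54.6, and Vmn1r201 had 0.512 RPKM in soma and was listed at 0 in male Het. The median difference was 1.31 in the run from Vmn1r188 to Vmn1r223 and -0.52 in the run from Vmn1r55 to Vmn1r65, values as deposited, whose sign depends on the scaling as above. The order of members in soma was less like that in male Het, with Spearman's rho of 0.554. Strain, genotype and cell type differ together between these libraries and cannot be told apart.

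**Figure D4:**
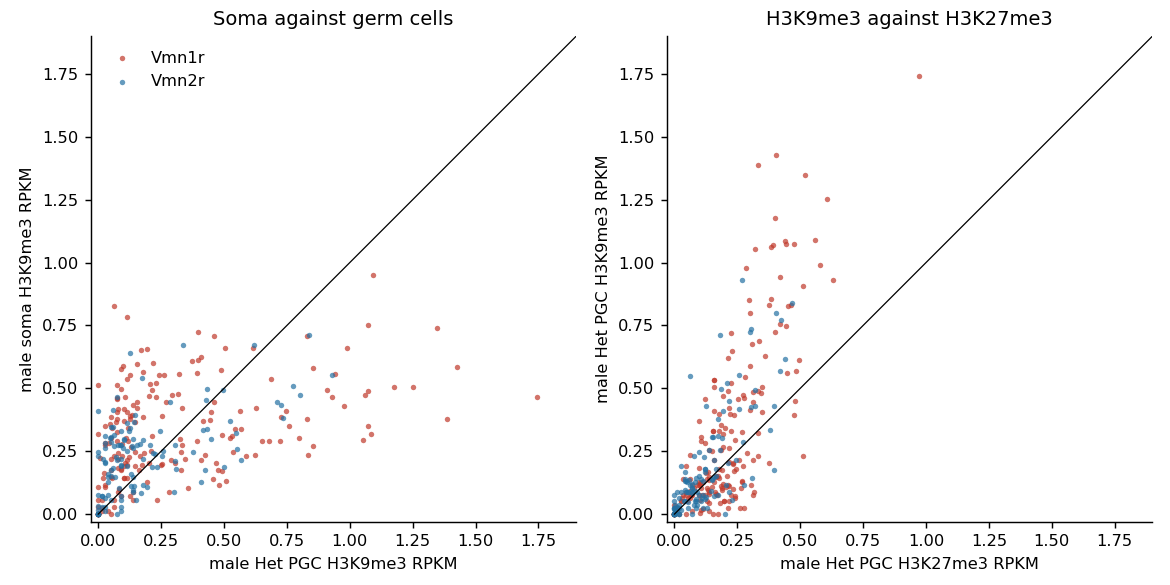
Each member (red, Vmn1r; blue, Vmn2r) by H3K9me3 RPKM in male soma (y) against male Het germ cells (x) on the left, and by H3K9me3 (y) against H3K27me3 (x) RPKM in male Het germ cells on the right, with the line of equal values. Soma values end at 0.95 RPKM and male Het germ cell values at 1.743 RPKM, and the values of the marks rise together on the right.

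Male and female Het germ cells had like levels at receptor promoters. Of 16 members at 1 RPKM or more in either library, 0 were called 2-fold lower and 0 higher in females for H3K9me3, beside 1.29% and 7.24% of 387 promoters. The median female minus male difference was 0.04 over members and 0.21 over all promoters, and -0.07 and 0.09 after centring. Females were higher at 173 members and lower at 127, beside 65.4% and 32.9% of all promoters. At 0.5 RPKM 1 member was called lower (Vmn1r44) and 1 higher (Vmn1r229), beside 1.41% and 9.7% of 2763 promoters. Vmn1r44 had the largest difference downwards among members, with 0.854 RPKM in males and 0.358 in females, a ratio of 0.438 (0.225 to 0.819). The largest differences upwards were at promoters near 0 in males, Vmn2r18 with 0 against 0.161 RPKM, Vmn2r26 with 0.025 against 0.208 RPKM and Vmn1r205 with 0.072 against 0.317 RPKM. For H3K27me3 no member was at the level, beside 0.393% called lower and 1% higher of 2796 promoters. At 0.5 RPKM 0 were called lower and 1 higher (Vmn1r68), beside 0.429% and 3.89% of 7451. Without regard to size females were higher at 176 members and lower at 121, beside 52% and 46.3% of all promoters.

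RNA of the receptors was near 0 in every library. Of the 325 genes, 224 were at 0 RPKM in all 16 libraries, 101 were above 0 in any, and 4 reached 1 RPKM in any. A value of 0.1 RPKM or more was given for 7 to 13 members in the 8 Het libraries and for 27, 19, 21 and 18 members in the 4 KO libraries, in male KO and then female KO. In this count each KO library lay above each Het library. The number of all genes at 0.1 RPKM or more was 14790 to 15646 in Het and 15571 to 16199 in KO, and that of olfactory receptor genes 7 to 29 in Het and 44 to 71 in KO, so Het and KO overlapped for all genes and did not overlap for olfactory receptor genes. The sequenced depth behind RPKM is unknown, and its part in these counts was not tested. In such bulk samples, fewer cells with the RNA and less RNA per cell cannot be told apart. All 7 male soma markers were measured, with Cyp17a1 at 0 in 3 Het libraries and Amh in 1. Their summed RPKM was 12.6 to 34.5 in male Het and 67.2 and 35.4 in male KO, 8.86 to 18.4 in female Het and 20.5 and 20.3 in female KO, and 1036 in soma, where 7 members were at 0.1 RPKM or more. Their part in the counts was not tested. Germ cell markers (6 of 6 measured) summed to 1753 to 2188 RPKM in male Het, 1875 and 2063 in male KO, 1287 to 1660 in female Het, 884 and 1190 in female KO and 14.3 in soma. Both female KO libraries lay below all female Het libraries in this sum, and its part in the counts was not tested.

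In males both KO libraries exceeded the highest of the 4 Het libraries at 12 members, 3.69% of the members beside 8.18% of all genes, and in females 8 did, 2.46% beside 11.9%. No member had both KO libraries below, beside 2.83% and 3.76%. Most members were at 0 and could not rank in this way. Both KO libraries above 0 with all 4 Het libraries at 0 were found for 7 members in males, 2.15% beside 0.967% of all genes and 1.44% of olfactory receptor genes, and for 4 in females, 1.23% beside 0.813% and 0.99%. Only genes at 0 in all 4 Het libraries of the sex could be counted in this way. In the 8 Het libraries 3.08% to 7.38% of members were above 0, against 68.3% to 76.5% of all genes. The shares of members can therefore not be compared with those of all genes. How far these counts follow the number of genes detected per library was not tested. Vmn2r3, a family C receptor, had 0.55 and 0.76 RPKM in male KO against 0.1, 0, 0 and 0.08 in male Het and 0.21 in male WT, and 0 in both female KO libraries. Vmn1r47 had 0.34 and 1.38 RPKM in female KO, 0.18 and 0 in male KO and 0 in all 8 Het libraries. Vmn1r219 had 0 and 0.91 RPKM in male KO, 0.34 and 0.52 in female KO, 0 in all 8 Het libraries and 0.13 in female WT. Vmn2r1 had 0.98 and 0.18 RPKM in female KO, 0 to 0.12 in female Het, 0.32 in female WT and 0.9 in soma, so 1 KO library lay below the WT library. Of the 57 promoters with a mean H3K9me3 of 0.5 RPKM or more, 12 had any RNA (21.1%), against 89 of the other 268 (33.2%). The highest KO value was 0.68 RPKM in the 57 and 9.89 RPKM in the 268. The 9.89 RPKM was of Vmn1r90 in female KO, a gene whose identifier the reference names pair with Nlrp5-ps. The next highest KO value in the 268 was 1.48 RPKM, of Vmn2r-ps106 in female KO. A link between H3K9me3 and RNA was not tested. Vmn1r124, Vmn1r215 and Vmn1r56 were at 0 in all 16 libraries.

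Among all 13518 genes at 1 RPKM or more in at least 2 of the 12 Het and KO libraries, 2 members were tested with limma on log2(RPKM + 1), where p-values measure the spread between libraries. None passed an adjusted p of 0.05 for KO against Het in males, in females or over both sexes, beside 0.614%, 0.407% and 1.04% of all genes, and 1 member had an unadjusted p under 0.05 in each, beside 615, 1670 and 1708 genes. Calls of higher RNA alone came to 0.614%, 0.399% and 1.01% of genes. Vmn1r90 had 2.28, 1.81, 2.24 and 1.06 RPKM in male Het (mean 1.85 ± 0.566, SD, n = 4) and 2.67 and 2.63 in male KO. In females it had 4.83, 5.52, 6.48 and 3.25 RPKM in Het (5.02 ± 1.36, SD, n = 4) and 9.89 and 8.75 in KO. The groups did not overlap in either sex. The log2 difference was 0.38 (SE 0.25, limma adjusted p = 1) in males, 0.81 (SE 0.25, limma adjusted p = 0.216) in females and 0.59 (SE 0.18, limma adjusted p = 0.169) over both. The difference between the sexes in that effect was 0.42 (SE 0.36, limma adjusted p = 1), a test that 0.0518% of genes passed.

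Vmn1r90 RNA was higher in female than in male Het germ cells, by 1.07 on the log2 scale (SE 0.21, limma adjusted p = 0.00224), a comparison in which 31.9% of genes passed and which was added after the data were seen. All 4 female Het libraries were above all 4 male ones, and the share of all genes that separate in this way was not counted. The WT libraries had 3.52 RPKM in females and 2 in males, C57BL/6 male germ cells 1.35 and male soma 12.36. With Het2 alone as control the difference was 1.13 and its limma adjusted p 0.0614. The reference names pair this gene's identifier with Nlrp5-ps and not with a vomeronasal receptor, so the values may belong to another gene. Its promoter had H3K9me3 of 0.089 RPKM in male Het, 0.333 in male KO, 0.219 in female Het and 0.145 in female KO, away from the upper tail. Vmn2r-ps106, by its name a pseudogene, had 0, 0, 0.62 and 0.62 RPKM in male Het and 1.09 and 1.1 in male KO, a log2 difference of 0.72 (SE 0.33, limma adjusted p = 1). In females it had 1.69, 0.81, 1.24 and 0.5 RPKM in Het and 1.48 and 0.24 in KO, a log2 difference of -0.20 (SE 0.33, limma adjusted p = 0.871) that turned to 0.30 without the second KO library.

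**Figure D5:**
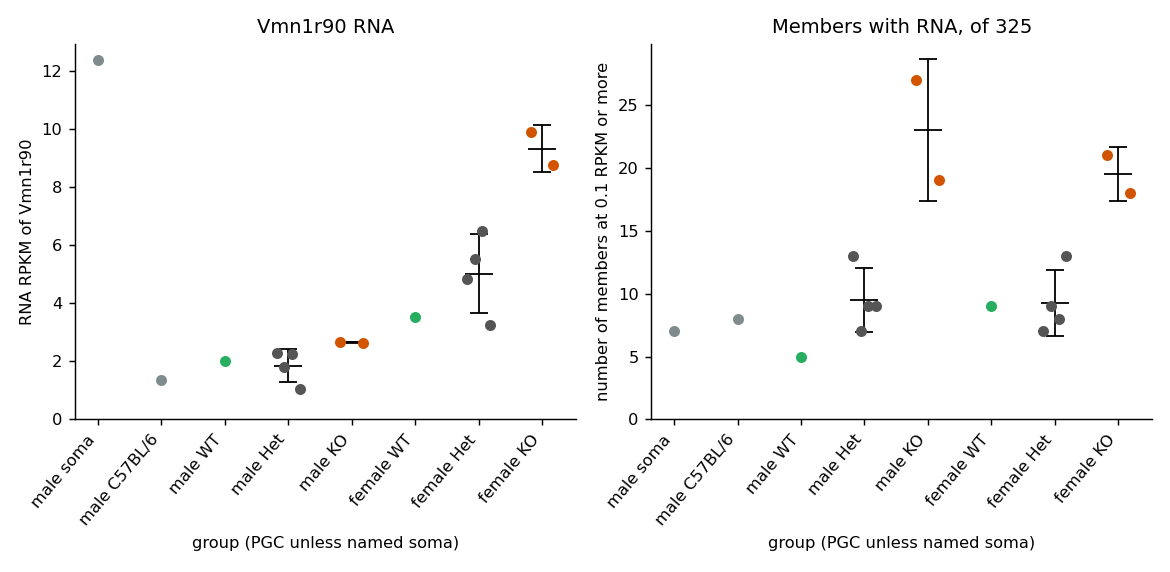
RNA RPKM of Vmn1r90 in each of the 16 libraries (left) and the number of the 325 members at 0.1 RPKM or more in each (right), with mean and SD where a group has more than 1 library (Het pools Het1 and Het2). Vmn1r90 is highest in male soma (12.36) and female KO (9.89 and 8.75), and the 4 KO libraries have 18 to 27 detected members against 7 to 13 in Het.

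The other genes of the vomeronasal system were measured in the same tables. Of 10 transduction genes, 6 passed the RNA filter and 0 passed the limma threshold for KO. Trpc2 had 6.39 to 8.66 RPKM in germ cells and 7.72 in soma, and Gnai2 had 73.85 to 165.1 RPKM in germ cells, while Gnao1 reached 1.56 and Omp, the olfactory marker protein of mature sensory neurons, 0.94 RPKM. Trpc2 and Gnai2 thus had RNA in germ cells and in soma alike. Of 7 measured formyl peptide receptors, a family of which only some are vomeronasal receptors, 6 or 7 were at 0 in each library. Of 8 H2-M class Ib genes, whose proteins accompany V2R receptors, 6 to 8 were at 0 in each library. At the promoters of these transduction, formyl peptide receptor and H2-M genes neither mark reached 1 RPKM in both sexes. None could thus be called in KO. Of 9 measured neuron factor and surface genes, Omp among them, Bcl11b, Kirrel2, Meis2, Nrp2 and Robo2 passed the RNA filter. None passed the limma threshold for KO. Robo2 differed most, with 10.32 and 7.32 RPKM in female KO against 2.65 to 4.35 in female Het. At 3 promoters of this list H3K27me3 reached 1 RPKM in both sexes, with 0 called. The formyl peptide receptor promoters Fpr-rs3, Fpr-rs6 and Fpr-rs7 had H3K9me3 of 0.404 to 0.828 RPKM in the 4 germ cell libraries, in the range of the upper tail of the vomeronasal receptors. The other measured promoters of that family, Fpr1, Fpr2, Fpr3 and Fpr-rs4, had 0.103 to 0.362 RPKM, and Trpc2 had 0.069 to 0.14 RPKM. Setdb1, the targeted gene, had 37.53 to 58.89 RPKM over the whole gene in Het and 27.11 to 34.65 in KO.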

How the data were processed

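The RPKM values were made by the authors before they were deposited, per the file headers, as reads per kilobase over each promoter window or gene. Alignment used BWA on build mm9, per the submitters' processing notes, with no version given, and neither the read counter nor the treatment of reads with several matches is given in the sources used here. Germ cells and soma were sorted by SSEA1, per the labels' protocols, and each ChIP library has no replicate of its sex, genotype and mark. ChIP differences were taken on log2(RPKM + 0.1), and a call needed 2-fold in both sexes with 1 RPKM or more in the higher library of each pair. Read pairs were estimated from the steps between low values, and ratios have exact 95% intervals that cover counting error only. RNA was tested on log2(RPKM + 1) with limma 3.58.1 in R 4.3.3 and Benjamini-Hochberg adjustment, over 12 libraries with 1 mean for each sex and genotype (Het1 and Het2 together), keeping genes that reached 1 RPKM in 2 or more libraries. WT, C57BL/6 and soma RNA were outside the fit. Tables were handled in Python 3.11.15 with pandas 2.3.3, numpy 2.4.6 and scipy 1.17.1, and the tests were tried on simulated data. Promoter sequences came from RefSeq by symbol.

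Named members were the 4 highest of each family, the largest changes each way in each comparison, the highest for H3K27me3 and RNA, and Vmn2r1 to Vmn2r7. The ranking at 0.5 RPKM, limma at that level, the scaled medians and the female against male contrast were chosen after seeing the data. The members and lists were chosen with earlier results of these data known. Of 186 members whose identifiers the reference names hold, 183 had the same symbol, and Vmn1r90, Vmn1r112 and Vmn2r72-ps had another. Total H3 ChIP and bisulfite libraries were not used here.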

Additional observations from a re-analysis of the deposited data

Results flagged for a closer look

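Dixon's test was run on the 4 Het libraries of each sex for the named RNA and for the number of members with RNA above 0 or at 0.1 RPKM or more. Of 18 groups in all it set 3 apart beyond its critical value of 0.829, where chance does so in about 1 group in 20. Vmn1r34 had 0.36 RPKM in the second female Het2 library and 0 in the other 3 female Het libraries. Vmn2r3 had 0.04 RPKM in the first female Het1 library and Vmn2r24 had 0.02 RPKM in the second, with 0 in the others. All are single values above a row of 0. The test sets such a value apart whatever its size, so the rate of 1 group in 20 does not apply to them. None of these members passed the filter for the RNA test.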

How the results depend on the processing

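For H3K9me3 in KO no alternative called a member lower, and no filter on level called 1 higher (Vmn1r236). Pseudocounts below 0.1 RPKM were not tried, and by its ratios of read pairs Vmn1r56 was more than 2-fold lower in both sexes. For H3K27me3 in KO no filter called 1 lower (Vmn1r1). The 9 members called lower in soma became 2 with a pseudocount of 0.5, 0 with a pseudocount of 1, 18 at a level of 0.5 RPKM, 0 at 2 RPKM, 28 with no filter and 2 at 3-fold, where 0.975%, 0.0929%, 1.08%, 24%, 0.989% and 0.441% of all promoters tested were called. At 2 RPKM no member was left. The shares at 1 RPKM are not a like background, since the members passed through male Het and most promoters through soma. Those called higher became 16 at 0.5 RPKM and 73 of 325 with no filter, beside 81.7% and 73.7% of all. Between the sexes, H3K9me3 gave 1 lower at 0.5 RPKM, with no filter and at 1.5-fold, and 1 higher at 0.5 RPKM and 10 with no filter, the last beside 8.31% of all. H3K27me3 gave 1 higher at 0.5 RPKM, and 6 higher and 1 lower with no filter. RNA calls became 6 in males, 1 in females and 4 over both sexes of 325 members with no filter on low values, beside 0.845%, 0.763% and 1.54% of all genes. The 6 in males had log2 differences of 0.08 to 0.66. Vmn2r22, among them, had 0.06 and 0.08 RPKM in male KO and 0 in male Het. Rows near 0 have little spread (SE 0.01 for Vmn2r22 in males), so these counts can not be read as an excess. With a filter and pseudocount of 0.1 RPKM the RNA calls became 2, 1 and 2 of 25, beside 0.842%, 0.536% and 1.19%. Of the called members, Vmn1r88, Vmn1r47 and Vmn2r96 were at 0 in every Het library and passed this filter through KO libraries alone. The shares of 25 can therefore not be compared with those of all genes. The cause of the changed counts was not tested. Leaving out each library in turn gave 0 to 0 members in all 3 RNA tests, and Vmn2r-ps106 in females ran from -0.70 to 0.30, the latter without the second female KO library. The difference of Vmn1r90 between the sexes missed the threshold with Het2 alone as control (limma adjusted p = 0.0614).

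Only 2 replicate numbers are shared, and nothing in the labels says that a number marks a common source. Deviations of same-numbered libraries correlated by 0.35 to 0.56 in males and -0.04 to 0.37 in females. With the number as a replicate block, genes called went from 83 to 97 in males, 55 to 91 in females and 141 to 186 over both sexes, with 0 members in each. Vmn1r90 had a limma adjusted p of 0.112 in females and 0.0908 over both sexes. ChIP has no paired fit, since each group holds 1 library. Promoters near the median rest on 5.4 to 11.3 read pairs, so differences there were not detectable at this depth.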

Other observations

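Other receptor families differed in H3K9me3 at their promoters. The 20 Mrgpr promoters, of itch and pain receptors, had medians of 0.434 RPKM in male Het, 0.616 in male KO, 0.52 in female Het and 0.596 in female KO, above the medians of the vomeronasal receptors, and 0 of 5 at 1 RPKM or more were called in KO. The 35 Tas2r promoters, of bitter taste receptors, had 0.102, 0.124, 0.153 and 0.192 RPKM. The 15 Taar promoters, of trace amine receptors in the nose, had 0.147, 0.182, 0.141 and 0.194 RPKM. These families were chosen by name, and the differences between families were not tested.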
